A study of Mus musculus with 35 samples.

Results

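The S100 calcium-binding genes were followed through RNA-Seq of mouse cardiac fibroblasts (CFs) and mouse hearts. They are the 9 genes S100a1, S100a4, S100a6, S100a8, S100a9, S100a10, S100a11, S100a13 and S100a16, found by gene symbol in each of the 4 deposited tables, out of 55487 genes listed. The CFs came from adult mice by enzymatic digestion of the heart and adherence to collagen-coated plates, and were transfected with a control siRNA (si-NC) or with 1 of 2 siRNAs against IAMP (si-IAMP-1, si-IAMP-2), the micropeptide encoded by 4930523C07Rik. Each siRNA was given to untreated CFs, to CFs with IL17 treatment and to CFs with TGF-β treatment, with 3 libraries per group and 27 in all. The labels give 24 h of siRNA and a further 24 h of IL-17; no duration is used here for untreated or TGF-β cells, and the TGF-β libraries carry the tissue label "Adult fibroblast". The hearts came from 8-week-old C57BL/6 mice, 4 heterozygous (Het) and 4 homozygous (KO) for a CRISPR-Cas9 frameshift allele of IAMP, so the controls also carry 1 mutant copy in every cell.

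S100 proteins are small calcium sensors that act mostly as dimers. On binding calcium most of them expose a surface that docks onto target proteins such as annexins, myosin or calcium channels, and some are also released from cells and act on surface receptors. S100A8 and S100A9 pair as calprotectin, an alarmin abundant in neutrophils and monocytes that signals through TLR4 and RAGE, whereas S100A1 is the heart muscle member, a partner of the ryanodine receptor and of the sarcoplasmic calcium pump. S100A4 is also known as fibroblast-specific protein.

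All 9 genes lie on chromosome 3 (GRCm38, GENCODE vM21), 7 of them between 90511034 and 90695721. In order along the plus strand these are S100a1 (minus strand, 90511034 to 90514392), S100a13 (90514435 to 90524581), S100a16 (90537254 to 90543151), S100a4 (90603771 to 90606045), S100a6 (90612882 to 90624181), S100a8 (90668978 to 90670035) and S100a9 (minus strand, 90692632 to 90695721). S100a11 (93520488 to 93526287) and S100a10 (93555080 to 93564643) lie further along the chromosome. S100a1 and S100a13 are arranged head to head, with annotated gene starts at 90514392 and 90514435.

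Promoter sequences were read from RefSeq (GRCm38.p6), in which 8 of the 9 members have an entry and S100a10 has none. The 4 shown are those of the calprotectin pair and of S100a4 and S100a11, whose order was reversed under TGF-β. Of the calprotectin pair, S100a9 gave no detectable difference in CFs. Each is the stretch of 250 bases before the RefSeq transcription start, which can differ from the GENCODE gene start, 5′ to 3′ on the gene's own strand, and capitals mark matches to TATAAA (a core promoter element), TTNNGCAA (C/EBP) and TGANTCA (AP-1) on either strand. The windows are chr3:90668821-90669070 (plus strand) for S100a8, chr3:90695722-90695971 (minus strand) for S100a9, chr3:90603520-90603769 (plus strand) for S100a4 and chr3:93520246-93520495 (plus strand) for S100a11.
S100a8: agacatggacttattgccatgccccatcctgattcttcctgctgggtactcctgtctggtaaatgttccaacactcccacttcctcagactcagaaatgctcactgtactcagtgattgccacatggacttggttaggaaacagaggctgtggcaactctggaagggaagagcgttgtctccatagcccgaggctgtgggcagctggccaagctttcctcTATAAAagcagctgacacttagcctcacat
S100a9: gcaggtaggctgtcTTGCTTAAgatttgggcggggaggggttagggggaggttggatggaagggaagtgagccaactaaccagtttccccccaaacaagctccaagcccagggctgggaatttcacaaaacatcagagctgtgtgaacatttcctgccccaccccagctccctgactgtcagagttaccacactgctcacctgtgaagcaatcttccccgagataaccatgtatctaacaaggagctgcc
S100a4: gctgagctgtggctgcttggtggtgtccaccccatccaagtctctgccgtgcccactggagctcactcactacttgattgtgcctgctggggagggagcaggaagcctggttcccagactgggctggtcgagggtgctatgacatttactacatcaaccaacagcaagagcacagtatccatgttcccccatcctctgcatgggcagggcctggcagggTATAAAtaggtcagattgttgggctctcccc
S100a11: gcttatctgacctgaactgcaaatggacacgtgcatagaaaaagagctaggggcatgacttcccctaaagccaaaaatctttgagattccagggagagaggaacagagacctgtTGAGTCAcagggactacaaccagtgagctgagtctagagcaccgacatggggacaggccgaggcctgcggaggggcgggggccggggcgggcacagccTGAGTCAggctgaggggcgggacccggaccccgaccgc
S100a8 and S100a4 held TATAAA, at 30 and 31 bases before the start, whereas S100a9 and S100a11 held none. S100a9 held 1 C/EBP match, read on the strand opposite to the one printed, and S100a11 held 2 AP-1 matches. Of 32851 RefSeq promoters of the same length, 12.4% held TATAAA, 9.56% TTNNGCAA and 6.75% TGANTCA. The motifs CAGAC (SMAD), ACGTG and GCGTG (hypoxia response) and GGGNNNNNCC (NF-κB) were also searched on both strands and were held by 42.2%, 16.6%, 28.2% and 45.8% of all promoters. CAGAC was found in S100a8, S100a4, S100a6 and the second start of S100a16, ACGTG in S100a11, GCGTG in S100a13, and GGGNNNNNCC in S100a1, S100a4, S100a6, S100a11, S100a13 and S100a16. These matches are letters in a window and were not tested as binding sites. The stretch of 104 bases between the RefSeq starts of S100a1 and S100a13, chr3:90514331-90514434, is shown 5′ to 3′ on the plus strand with CpG pairs in capitals, because both genes start from it.
S100a1 and S100a13: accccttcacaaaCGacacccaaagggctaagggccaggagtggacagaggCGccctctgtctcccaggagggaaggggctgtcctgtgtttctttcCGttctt
It held 3 CpG pairs and 58.7% G and C.

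The CF libraries held 104139670 to 119232309 estimated counts, and the hearts 23497027 to 23857313 counts. Levels are given as CPM (counts per 1e6 counts) with TMM scaling, on 1 scale for the 27 CF libraries and another for the hearts, and levels of different genes are compared only per kilobase of exon. The length used was that of all annotated exons of a gene merged, from 511 bases (S100a11) to 1617 (S100a16). Among genes with a value in 1 library of a CF table, 6 was the most frequent value (17% to 22% of them), so 1 read pair was taken to stand for up to 6 estimated counts. On that reading, which no source states and on which the bounds given for S100a8 rest, 18 estimated counts (0.144 to 0.173 CPM) were taken as the floor of detection there, and 3 counts (0.120 to 0.130 CPM) in hearts. The summed CPM of 9 fibroblast markers was 12964 to 21307 in CFs and 628 to 942 in hearts, and that of 9 cardiomyocyte markers was 3.23 to 97.8 and 51786 to 56175. Macrophage markers summed to 61.5 to 169 CPM in CFs, over 10 genes. The defining markers of the labelled cell type and tissue were thus present. 4930523C07Rik itself had 22, 22.7 and 25.7 CPM with si-NC in untreated CFs, 2.52, 3.51 and 2.98 with si-IAMP-1, and 1.77, 1.87 and 1.89 with si-IAMP-2. It was also lower under IL-17, with group means 0.139 (si-IAMP-1) and 0.0936 (si-IAMP-2) times the si-NC mean. Under TGF-β they were 0.212 and 0.16 times it, against 0.128 and 0.0785 in untreated CFs. The KO hearts had 15.1 to 17.3 CPM and the Het hearts 15.9 to 18.8, so the transcript level does not check a frameshift allele.

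Untreated CFs were rich in S100 transcripts. With si-NC, S100a4 stood highest at 1581 CPM per kilobase, followed by S100a11 (1042), S100a6 (506), S100a10 (112), S100a16 (51.6), S100a13 (23.0) and S100a1 (11). No library of one of these 7 overlapped those of the next. The order and the shares below rest on the exon lengths used. In CPM without length, S100a6 (691) stood above S100a11 (532). S100a8 and S100a9 were listed at 0 in all 3 si-NC libraries. S100a4, S100a11 and S100a6 together therefore carried nearly the whole of the summed level of the 9 genes, with mean shares of 47.5%, 31.3% and 15.2%. That sum was 3326 ± 33 CPM per kilobase (SD, n = 3) with si-NC. Hearts had another order. S100a1 was highest in Het hearts at 485 CPM per kilobase and made up 79.2% of the sum, followed by S100a11 (42.0), S100a10 (28.8), S100a13 (20.5), S100a16 (18.5), S100a6 (13.9) and S100a4 (2.88). S100a13 and S100a16 overlapped in Het hearts, and no other neighbours among these 7 did. Hearts and CFs were sequenced and tabulated separately and their difference was not tested. In bulk RNA, fewer cells of a type and less RNA per cell cannot be told apart.

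**Figure D1:**
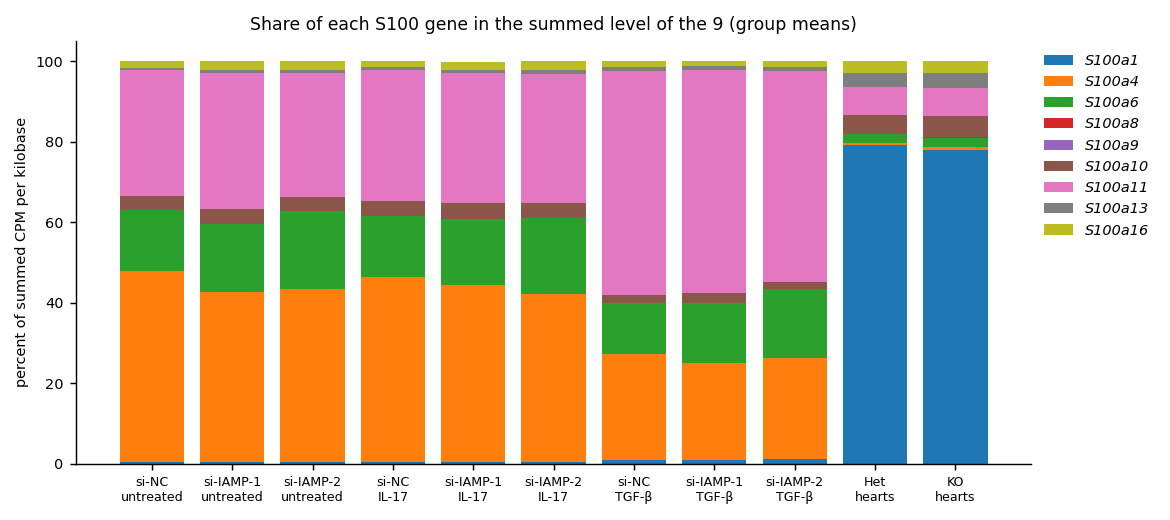
Stacked bars give the mean share of each S100 gene in the summed CPM per kilobase of the 9 genes (vertical axis, percent) in the 9 CF groups (n = 3 each) and the 2 heart groups (n = 4 each). S100a4 led in untreated and IL-17 CFs, S100a11 led under TGF-β with 52.4% to 55.7%, and S100a1 made up 79.2% and 78.0% in Het and KO hearts.

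S100a11 and S100a4 share sequence with other annotated genes. In all, 7 processed pseudogenes matched S100a11 over at least 100 bases at an identity of at least 85%, the closest being Gm12854 (98.99%) and Gm7665 (98.653%). Their summed value was 0.522% to 1.51% of that of S100a11 in CFs but 44.8% to 56.1% in hearts, so the level of S100a11 in hearts is uncertain. Gm42674 overlaps S100a4 on the same strand over 2115 bases and had at most 40 estimated counts in CFs, against 41111 to 117798 for S100a4.

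S100a8 was scarce in CFs and differed between groups in all 3 conditions. In untreated CFs its values with si-NC were 0, 0 and 0 estimated counts, with si-IAMP-1 they were 16, 22 and 0, and with si-IAMP-2 they were 61, 39 and 40. All si-IAMP-2 libraries lay above the floor and 1 of the si-IAMP-1 libraries did. With the si-NC group set to the floor in each library, the si-IAMP-2 mean was at least 2.75-fold higher. That bound was not itself tested. The test on the values as listed gave an adjusted p = 0.000388 (edgeR quasi-likelihood test, Benjamini-Hochberg over all genes). The si-IAMP-1 and si-NC groups overlapped at 0, although the test called them different (adjusted p = 0.0049), and no fold is given. After division of the estimated counts by 6, S100a8 was too low to be tested in the untreated table.

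Under IL-17 the values of S100a8 were 16, 9 and 0 with si-NC, 42, 37 and 25 with si-IAMP-1, and 103, 67 and 84 with si-IAMP-2. The 3 groups did not overlap. The si-IAMP-1 mean was at least 2.11-fold and the si-IAMP-2 mean at least 4.98-fold higher, with si-NC again set to the floor. The test on the values as listed gave adjusted p = 0.0138 and 0.000347 (edgeR). The si-IAMP-1 call was lost in a fit of the compared groups alone (adjusted p = 0.0555) and without si-IAMP-1 replicate 1 (adjusted p = 0.0536). Between the siRNAs the log2 difference of 1.22 (interval -0.02 to 2.47) missed the threshold (adjusted p = 0.106, edgeR). It passed with values divided by 6, in a fit of the compared groups alone and without si-NC replicate 3 (adjusted p = 0.00769, 0.00766 and 0.0151).

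Under TGF-β S100a8 was above the floor in every library, at 35, 39 and 35 with si-NC, 94, 65 and 92 with si-IAMP-1, and 133, 209 and 114 with si-IAMP-2. Here a fold change can be read. S100a8 rose by 1.22 ± 0.299 (SE) on the log2 scale with si-IAMP-1 and by 2.12 ± 0.301 with si-IAMP-2 (adjusted p = 0.0063 and 3.26e-05, edgeR). The 3 groups did not overlap. Per kilobase, even the highest group mean of S100a8 was 2.08 CPM, beside 525 for S100a6 in the same libraries.

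S100a9, the partner in calprotectin, was not seen to follow S100a8 in CFs. It was listed at 0 in 25 of 27 CF libraries, with 4 estimated counts in 1 IL-17 si-NC library and 18 in 1 TGF-β si-IAMP-1 library, none above the floor. A difference in S100a9 was therefore not detectable at this depth, and it was not tested in any CF comparison.

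Neutrophil markers were measured beside S100a8. Retnlg was at 0 in all 27 CF libraries, Elane and Ctsg had a value in 1 library each and Ly6g in 2, at no more than 5 estimated counts. The summed level of the 12 neutrophil markers was nevertheless not flat. In untreated CFs it was 0.851 to 1.36 CPM with si-NC, 3.68 to 4.49 with si-IAMP-1 and 3.93 to 4.89 with si-IAMP-2. With IL-17 it was 0.919 to 1.27, 4.59 to 5.24 and 5.28 to 6.15 CPM, and with TGF-β 12.7 to 14.6, 22.9 to 25.1 and 20.1 to 20.7 CPM. In each condition both siRNA groups lay above si-NC, as they did for the group means of S100a8. Mmp8, a collagenase on that list, ran from 79 to 2115 estimated counts over the 27 libraries and Camp, a cathelicidin, from 0 to 582. Their medians were 4.16 and 0.665 CPM and those of the others 0 to 0.0648, so the sum was mostly Mmp8 and Camp. With either siRNA, 1 of 4 tested markers was called higher in untreated CFs, 2 of 4 with IL-17 and 2 of 6 with TGF-β, and none lower. The shares of all genes called were 39.9% and 49.3%, 42.3% and 50.6%, and 23.1% and 29.9%. The 10 macrophage markers summed to 62.7 to 66.6, 61.5 to 65.4 and 79 to 83.6 CPM in untreated CFs, in the same order of groups. With IL-17 the sums were 62.6 to 63.7, 68.9 to 73.9 and 80.4 to 89.7 CPM. With TGF-β both siRNA groups lay below si-NC, at 161 to 169, 129 to 143 and 144 to 151 CPM. These sums are weighted to Lyz2, with a median of 44.6 CPM over the 27 libraries against 13.5 for Csf1r. The single markers went both ways. In untreated CFs 1 was called higher and 3 lower with si-IAMP-1, and 2 and 3 with si-IAMP-2. With IL-17 the counts were 2 and 2, then 2 and 3, and with TGF-β 0 and 4, then 1 and 4. The part of these markers in the S100a8 result was not tested.

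**Figure D2:**
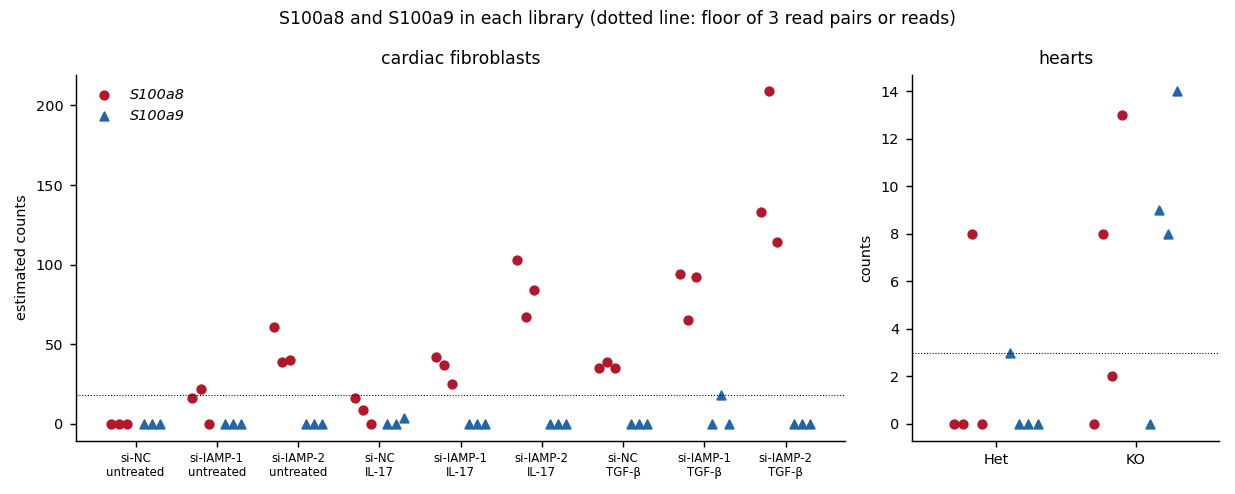
Points give the value of S100a8 (circles) and S100a9 (triangles) in each library, as estimated counts in the 27 CF libraries (left) and counts in the 8 hearts (right), with dotted lines at the floors of 18 and 3. S100a8 reached 209 in a TGF-β si-IAMP-2 library, whereas no CF library exceeded 18 for S100a9.

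The same comparisons were made for the abundant members. The counts that follow are over the 8 members that passed the filter on low values in the CF tables, all but S100a9. In untreated CFs, si-IAMP-1 called 6 of the 8, of which 2 were higher and 4 lower, where 39.9% of all genes tested were called. With si-IAMP-2, 4 were called, all higher, where 49.3% of all genes were. Against these backgrounds the number of members called says little, and the values and directions below carry the description. The labels do not say whether the 3 libraries of a group came from separate cultures, so the p values measure the spread between these libraries, which may be technical.

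S100a4, which binds non-muscle myosin, had 913, 912 and 944 CPM with si-NC, 668, 708 and 558 with si-IAMP-1, and 825, 828 and 861 with si-IAMP-2. Every knockdown library lay below every si-NC library, and si-IAMP-1 replicate 3 was lowest. It fell by 0.52 on the log2 scale with si-IAMP-1 (SE 0.0782, adjusted p = 0.000701, edgeR). With si-IAMP-2 the log2 difference of -0.16 (95% confidence interval -0.34 to 0.02) missed the threshold (adjusted p = 0.133), although it passed in a fit of the compared groups alone (adjusted p = 0.00107) and without si-IAMP-1 replicate 2 or 3 (adjusted p = 0.0326 and 0.000969), libraries that enter only the estimate of the spread.

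S100a6, or calcyclin, had 706, 685 and 683 CPM with si-NC, 578, 649 and 585 with si-IAMP-1, and 841, 901 and 894 with si-IAMP-2. The 2 siRNAs moved it in opposite directions. It fell by 0.20 on the log2 scale with si-IAMP-1 and rose by 0.33 with si-IAMP-2 (SE 0.0404 for each; adjusted p = 0.000675 and 2.97e-06, edgeR).

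S100a10, the light chain that binds annexin A2, and S100a11, a partner of annexin A1, changed with si-IAMP-1. S100a10 had 132, 137 and 139 CPM with si-NC against 113, 118 and 117, and fell by 0.23 on the log2 scale (SE 0.0338, adjusted p = 2.66e-05, edgeR). S100a11 had 531, 534 and 533 CPM against 423, 475 and 454, and fell by 0.25 (SE 0.0368, adjusted p = 3.93e-05). With si-IAMP-2 neither passed the test, with log2 differences of 0.05 (interval -0.03 to 0.12) and -0.05 (interval -0.13 to 0.03).

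S100a13, which takes part in the release of FGF1, and S100a16, a widely expressed member, were highest with si-IAMP-2. S100a16 rose with both siRNAs, by 0.17 ± 0.0430 (SE) and 0.46 ± 0.0430 on the log2 scale, from 83.4 ± 5.45 CPM (SD, n = 3) to 94.3 ± 2.92 and 116 ± 1.92. S100a13 rose with si-IAMP-2, by 0.43 ± 0.0917 (SE), from 16.4 ± 2.34 to 22.5 ± 1.70 CPM (adjusted p = 0.000735, edgeR), and its log2 difference with si-IAMP-1 was -0.03 (interval -0.22 to 0.17). S100a1 had log2 differences of 0.17 and 0.20 (adjusted p = 0.128 and 0.0614).

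The difference between the siRNAs was also tested directly. In untreated CFs 6 members, S100a4, S100a6, S100a10, S100a11, S100a13 and S100a16, were higher with si-IAMP-2 than with si-IAMP-1 and none was lower, where 45.5% of all genes were called. The difference was largest for S100a6, at 0.53 ± 0.0405 (SE) on the log2 scale (adjusted p = 1.23e-08, edgeR), and it was 0.36 for S100a4, 0.28 for S100a10 and 0.46 for S100a13. S100a8 did not pass, with a log2 difference of 1.83 (interval -0.17 to 3.83). The median log2 difference of the 8 members was 0.33, beside -0.02 for all genes tested.

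With IL-17 the siRNA effects on S100a6, S100a13 and S100a16 had the same directions for si-IAMP-2. With si-IAMP-1, 3 members were higher and 2 lower (42.3% of all genes called), and with si-IAMP-2, 6 were higher and 1 lower (50.6%). S100a6 was at 615, 617 and 602 CPM with si-NC, 606, 645 and 633 with si-IAMP-1, and 792, 759 and 797 with si-IAMP-2. It rose by 0.34 ± 0.0311 (SE) on the log2 scale with si-IAMP-2 (adjusted p = 6.15e-08, edgeR), while the si-IAMP-1 libraries overlapped si-NC (0.03, interval -0.04 to 0.10).

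S100a1 passed the test here with both siRNAs, at 0.31 and 0.36 on the log2 scale (adjusted p = 0.0103 and 0.00291, edgeR), from 7.01 ± 0.529 CPM to 8.74 ± 0.708 and 9.10 ± 0.514 (SD, n = 3). Its si-IAMP-1 call was lost without si-IAMP-1 replicate 3 or si-NC replicate 2 (adjusted p = 0.0554 and 0.0527). S100a4 was the member lower with both, by -0.17 and -0.13. S100a10 was called with si-IAMP-2 (0.08, adjusted p = 0.0393), a call that 7 of 9 leave-one-out fits lost. Between the siRNAs, 4 members (S100a6, S100a11, S100a13 and S100a16) were higher with si-IAMP-2 and none lower (46.2% of all genes called).

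With TGF-β 4 members were called with each siRNA. With si-IAMP-1, S100a8 and S100a10 were higher and S100a4 and S100a16 lower (23.1% of all genes called), and with si-IAMP-2, S100a1, S100a6 and S100a8 were higher and S100a10 lower (29.9%). S100a10 had 78.1, 76.0 and 70.9 CPM with si-NC, 83.3, 85.7 and 82.6 with si-IAMP-1, and 58.7, 64.8 and 58.9 with si-IAMP-2. The 3 groups did not overlap and the siRNAs lay on opposite sides of si-NC. It rose by 0.16 ± 0.0472 (SE) on the log2 scale with si-IAMP-1 (adjusted p = 0.0183, edgeR) and fell by 0.30 with si-IAMP-2 (SE 0.0474, adjusted p = 9.32e-05). The si-IAMP-1 call was lost without si-IAMP-1 replicate 2 or si-NC replicate 3 (adjusted p = 0.0874 and 0.100).

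S100a6 again rose with si-IAMP-2, by 0.43 ± 0.0441 (SE) on the log2 scale, with 744, 725 and 685 CPM against 536, 563 and 497. S100a1 rose by 0.36 ± 0.0599 (SE), from 17.2 ± 0.711 to 22.1 ± 1.01 CPM (SD, n = 3). S100a4 fell by 0.26 with si-IAMP-1 and S100a16 by 0.16, and both calls were lost without si-NC replicate 1 (adjusted p = 0.0646 and 0.0828), which left 2 of the 8 members called. S100a1, S100a6, S100a8 and S100a13 were higher with si-IAMP-2 than with si-IAMP-1, and S100a10 was lower (24.0% of all genes called). The S100a8 difference between the siRNAs (0.90 ± 0.285, adjusted p = 0.0278) was lost without si-IAMP-2 replicate 2 (adjusted p = 0.203) and without any of the 3 si-IAMP-1 libraries.

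**Figure D3:**
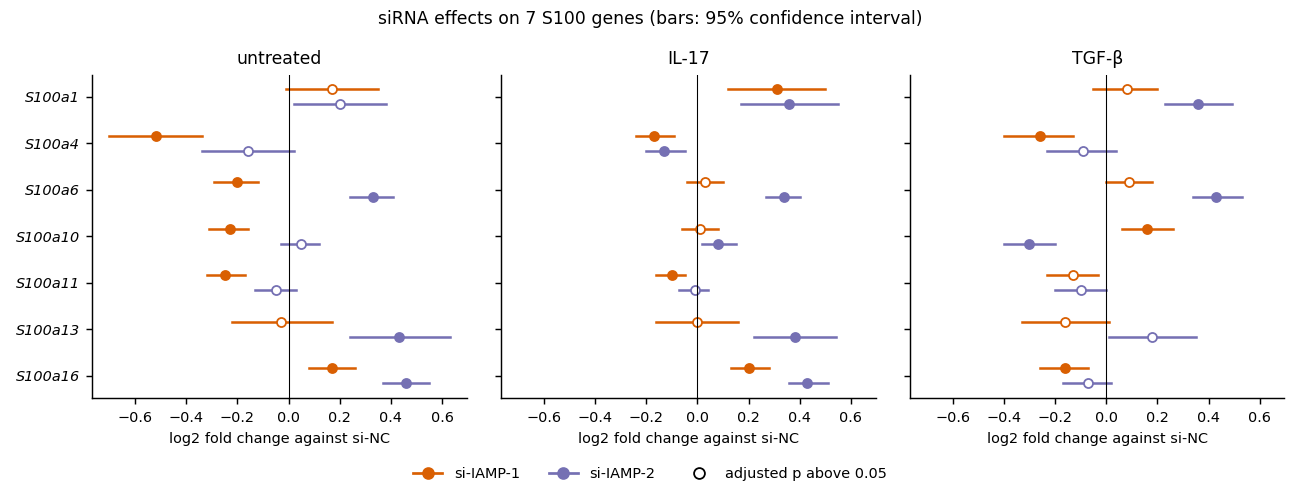
Points give the log2 fold change of 7 S100 genes with si-IAMP-1 (orange) and si-IAMP-2 (purple) against si-NC in untreated, IL-17 and TGF-β CFs, with bars for the 95% confidence interval and open points for an adjusted p above 0.05. S100a6 rose with si-IAMP-2 in all 3 conditions (0.33, 0.34 and 0.43), and S100a10 under TGF-β lay at 0.16 and -0.30.

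The stimuli were compared among the si-NC libraries. Each stimulus is a table of its own, so the stimulus and the table cannot be told apart. IL-17 called 3 of the 8 members, where 12.2% of all genes were called. S100a6 was lower, at 615, 617 and 602 CPM against 706, 685 and 683 (-0.18 ± 0.0423 on the log2 scale, adjusted p = 0.00323, edgeR), and S100a4 was at the threshold (-0.21, adjusted p = 0.0493). Of 27 leave-one-out fits, 19 lost the S100a4 call. S100a8 was also called higher, with 16, 9 and 0 against 0, 0 and 0 estimated counts, but both groups were at or under the floor and no fold is given. 

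All 8 members tested differed between the TGF-β and untreated si-NC libraries, 4 higher and 4 lower, where 55.5% of all genes were called. S100a11 had 915, 897 and 820.3 CPM against 531, 534 and 533 and rose by 0.72 ± 0.0409 (SE) on the log2 scale, and S100a4 had 492, 504 and 438 against 913, 912 and 944 and fell by 0.95 (SE 0.0685). Their order was reversed, and S100a11 was the highest member under TGF-β at 1717 CPM per kilobase, with S100a4 at 818. S100a10 had 78.1, 76.0 and 70.9 CPM against 132, 137 and 139 and fell by 0.86 (SE 0.0397).

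S100a1, the heart muscle member, rose by 1.18 ± 0.0742 (SE) on the log2 scale under TGF-β, from 7.61 ± 0.485 to 17.2 ± 0.711 CPM (SD, n = 3). Of the 9 cardiomyocyte markers, Tnnt2 ran from 2.84 to 97.3 CPM over the 27 CF libraries, and the other 8 had medians of 0 to 0.225 CPM. Of the 5 tested in this comparison 1 was lower and none higher, and their part in the S100a1 result was not tested. S100a13, its head-to-head neighbour, rose by 0.40 ± 0.0919 (SE), and S100a6 and S100a16 fell by 0.38 and 0.26. S100a8 was at least 2.24-fold higher, with the untreated group set to the floor. All these changes had adjusted p values of 0.000423 or less (edgeR, on the values as listed), and the 8 calls held in each of 27 leave-one-out fits. The summed level of the 9 genes was 3085 ± 187 CPM per kilobase under TGF-β against 3326 ± 33 untreated (SD, n = 3). Markers of other cell types also moved in this comparison. Of 10 macrophage markers 5 were higher and 2 lower, with a sum of 161 to 169 CPM under TGF-β against 62.7 to 66.6 untreated. Endothelial markers were higher for 6 of 7 and lower for 1 (114 to 115 against 65.4 to 71.6 CPM), and Schwann cell markers were higher for 3 of 4 (7.63 to 8.29 against 2.14 to 3.05 CPM). Of 4 mesothelial markers 3 were lower and 1 higher (24.6 to 29.4 against 60.9 to 64.8 CPM). Their part in the S100 results was not tested.

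**Figure D4:**
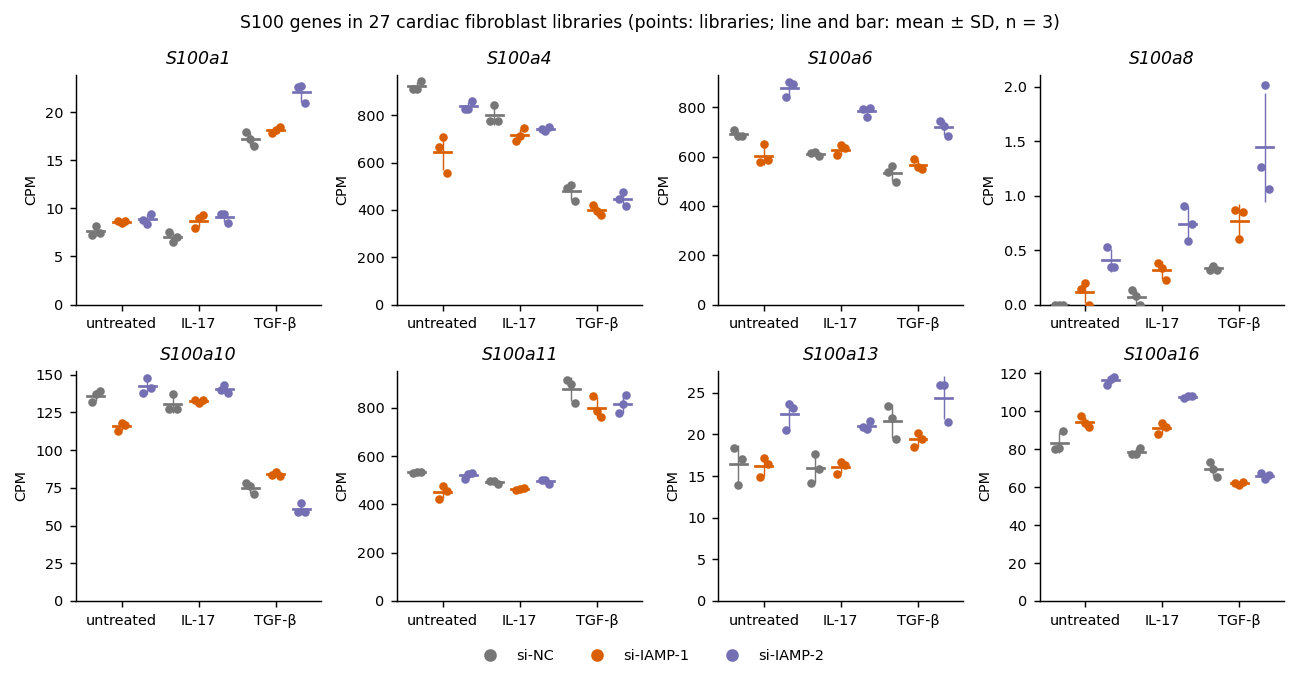
Each panel plots CPM (vertical axis, from 0) of 1 S100 gene in the 27 CF libraries, with points for libraries and a line and bar for the mean ± SD of 3, coloured by siRNA and ordered by condition. Under TGF-β S100a4 and S100a10 were lower and S100a1 and S100a11 higher than in untreated CFs, and S100a6 was highest with si-IAMP-2 in each condition.

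Differences of a siRNA effect between stimulated and untreated CFs were tested as interactions over the 27 libraries. The 4 interactions share the untreated libraries. For IL-17, 2 of the 8 members differed with si-IAMP-1 (1.73% of all genes called), S100a6 by 0.23 and S100a10 by 0.25 on the log2 scale, both higher than in untreated CFs. Of 27 leave-one-out fits, 9 lost the S100a6 call (adjusted p = 0.0511 to 0.135). With si-IAMP-2 none of the 8 was called by edgeR (1.64% of all genes called), and 1 of them had an unadjusted p under 0.05. DESeq2 also called none there.

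For TGF-β, 4 members differed with si-IAMP-1 (19.5% of all genes called) and 3 with si-IAMP-2 (29.5%). The knockdown was itself weaker there, with the log2 effect on 4930523C07Rik differing by 0.73 and 1.02 (adjusted p = 0.000541 and 3.84e-06, edgeR). Its part in the member differences was not tested. S100a10 differed by 0.39 ± 0.0559 (SE) with si-IAMP-1 and by -0.37 ± 0.0560 with si-IAMP-2. S100a16 differed by -0.34 and -0.55, having risen with both siRNAs in untreated CFs. S100a6 differed by 0.29 with si-IAMP-1, from a fall to a value that missed the threshold. S100a8 was called lower in both (adjusted p = 0.0223 and 0.0031, edgeR), but its untreated si-NC libraries were all at 0, so the fitted differences of -5.47 and -6.41 depend on the value put in place of 0 and are no measure of size. The si-IAMP-1 call was lost without untreated si-IAMP-1 replicate 2 or any untreated si-NC library (adjusted p = 0.0562 to 0.0603). It was also lost with values divided by 6 (adjusted p = 0.0809).

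Other S100 genes were scarce. Of the 9 further S100 genes listed, S100a7l2 was at 0 in all 35 libraries, and S100a5, S100g and S100z were at 0 in all 8 hearts. S100b, S100a7a and S100a3 were above 0 in all 27 CF libraries, at medians of 8.45, 1.87 and 1.65 CPM. Of the 4 tested in untreated CFs, 3 were lower with si-IAMP-1 and none passed with si-IAMP-2, while under TGF-β against untreated si-NC cells 3 of 5 were lower. The shares of all genes called there were 39.9%, 49.3% and 55.5%. S100a3 fell by 1.87 on the log2 scale and S100a7a by 1.54 under TGF-β (adjusted p = 3.34e-09 and 4.82e-06, edgeR). With IL-17, S100a3 fell by 1.06 with si-IAMP-1. Both genes were higher with si-IAMP-2 than with si-IAMP-1 in untreated CFs, by 1.02 and 1.09.

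The protein partners of the S100 family were counted next. Of 16 partners, 13 were tested in untreated CFs, of which 5 were higher and 6 lower with si-IAMP-1, and 4 and 6 with si-IAMP-2, where 39.9% and 49.3% of all genes were called. Their median log2 differences were -0.01 and -0.11, beside -0.02 for all genes in both comparisons. Under TGF-β 12 of 16 were lower than in untreated si-NC cells and none higher (55.5% of all genes called), with a median of -0.82 beside 0.02 for all genes. The largest log2 differences were those of Plat, the tissue plasminogen activator (-2.71), and Ahnak, a scaffold of the S100A10 and annexin A2 complex (-1.82). Anxa2, the partner of S100A10, fell by 0.90 ± 0.0317 (SE) beside the fall of 0.86 in S100a10. It was named after its values were seen. Plat was also lower with si-IAMP-1 in untreated and IL-17 CFs, by -1.12 and -1.13, and its si-IAMP-1 effect was higher under TGF-β by 1.10. Ryr2, the ryanodine receptor, was scarce. It had 85, 98 and 38 estimated counts in untreated si-NC libraries, all above the floor. The stimulated si-NC libraries lay around the floor, with 6, 20 and 18 with IL-17 and 29, 13 and 24 with TGF-β. It was called lower with each stimulus and higher with si-IAMP-1 within the IL-17 table (42, 33 and 49), and no fold is given.

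Of 8 receptors and receptor components for released S100 proteins, all were tested. In untreated CFs 3 were higher and 1 lower with si-IAMP-1, and 3 and 3 with si-IAMP-2, and under TGF-β against untreated si-NC cells 6 were higher and 2 lower, beside 39.9%, 49.3% and 55.5% of all genes called. Tlr4, a receptor for calprotectin, rose with si-IAMP-1 by 1.19 ± 0.0459 (SE) on the log2 scale in untreated CFs and by 1.01 with IL-17, and was lower with si-IAMP-2 than with si-IAMP-1 by -1.34 and -1.26. Ager, which encodes RAGE, was lower with si-IAMP-2 in each condition (adjusted p = 0.00741, 0.0184 and 0.0101, edgeR). In untreated CFs it had 70, 39 and 33 estimated counts with si-NC and 6, 0 and 12 with si-IAMP-2, all of the latter under the floor, so no fold is given, and the log2 differences were -1.57 with IL-17 and -1.22 with TGF-β. It was also called lower with si-IAMP-2 than with si-IAMP-1 in untreated and TGF-β cells, from levels of at most 1.51 CPM. Under TGF-β Ager, Cd14, a co-receptor of Tlr4, and Cd36, a scavenger receptor, rose by 1.59, 1.55 and 1.05, and Alcam fell by 1.34.

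The genes most like a member were taken as those with the highest Pearson correlation of log2(CPM + 0.5). These libraries share conditions and tables, so the correlations are descriptions. They were picked as the highest among 13330 genes in CFs and 14458 in hearts, so they are large by selection, above all over 8 hearts. Over the 27 CF libraries, S100a4 was most like Rps27l, Vdac1 and Lcorl (r = 0.971, 0.968 and 0.967), S100a6 most like Mcub, Psmc6 and Fgf2 (0.921, 0.909 and 0.909), and S100a8 most like Zfp110 and Sqstm1 (0.929 and 0.925). S100a9 had values in 2 CF libraries only, and the genes nearest to it, C920006O11Rik, Mypopos and Mthfs, reached 0.568, 0.513 and 0.492. Over the 8 hearts the nearest genes were Vhl, Kctd20 and Rsf1 for S100a4 (0.953, 0.950 and 0.928), Castor2 and Nkd1 for S100a6 (0.991 and 0.972), Ufsp2, Ube2d-ps and Gm36995 for S100a8 (0.979, 0.973 and 0.934), and Got1, Bfar and Fyb for S100a9 (0.924, 0.922 and 0.921). S100a8 and S100a9 were each at 0 in 4 of the 8 hearts, with at most 13 and 14 counts. Among the members, the highest correlations in CFs were those of S100a1 with S100a11 (0.919) and of S100a4 with S100a10 (0.896), and the lowest that of S100a1 with S100a10 (-0.940).

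In hearts no S100 gene was called different between KO and Het. Of the 7 members tested none passed with edgeR, where 0% of 16675 genes were called and 601 had an unadjusted p under 0.05. No member had an unadjusted p under 0.05. DESeq2 called 5 of all genes and no member. S100a1 had 362, 341, 345 and 298 CPM in Het hearts and 331, 349, 309 and 313 in KO hearts. The groups overlapped, with a log2 difference of -0.05 (95% confidence interval -0.19 to 0.09). S100a4 was the member whose groups did not overlap, with 1.71, 1.44, 1.78 and 1.80 CPM in Het and 2.34, 1.94, 1.81 and 2.15 in KO hearts. The nearest values were 1.80 and 1.81 CPM, and the share of all genes without overlap is not given here. The S100a4 counts were 33 to 45 and 44 to 54, and the log2 difference of 0.29 (interval -0.01 to 0.59) had an unadjusted p of 0.0615 and an adjusted p of 1. The log2 differences of S100a6, S100a10, S100a11, S100a13 and S100a16 lay between -0.01 and 0.11, and the widest of their intervals, that of S100a10, ran from -0.18 to 0.39.

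S100a8 and S100a9 were too low in hearts for the test. S100a8 had 0, 0, 8 and 0 counts in Het and 0, 8, 2 and 13 in KO hearts, and S100a9 had 3, 0, 0 and 0 in Het and 0, 9, 8 and 14 in KO hearts. S100a9 was above the floor of 3 counts in 3 of 4 KO hearts and in no Het heart, but the groups overlapped. The KO heart with the highest values of both also had the highest sum of the 12 neutrophil markers, 40 counts, against 12 to 23 in the other 7 hearts. Csf3r, the receptor for G-CSF, had 12 to 23 counts per heart, whereas Ly6g, Elane, Mpo, Camp, Ngp, Ltf and Ctsg were at 0 in all 8. The part of blood cells in these values was not tested.

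**Figure D5:**
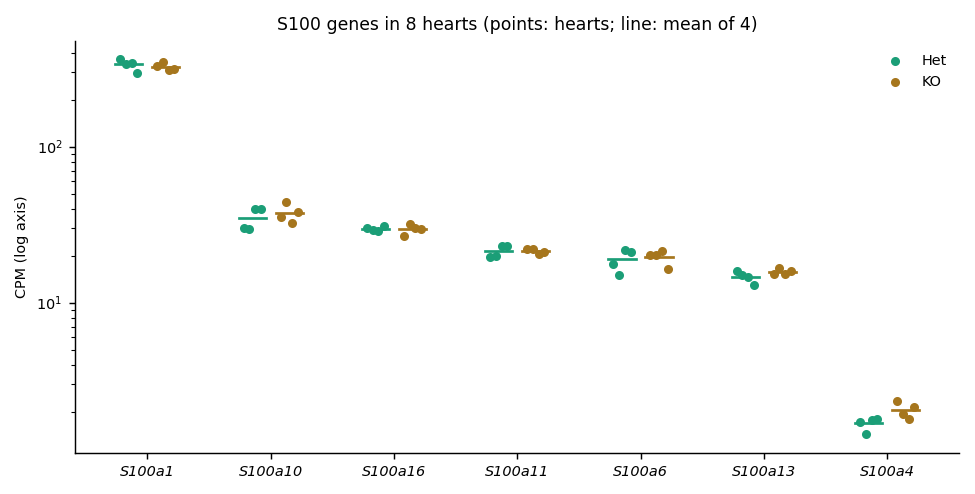
Points give CPM (log axis) of the 7 S100 genes tested in hearts in each of 4 Het (green) and 4 KO (brown) hearts, with a line at the mean. S100a1 lay at 298 to 362 CPM, and the 2 genotypes overlapped for each gene except S100a4, whose nearest values were 1.80 and 1.81 CPM.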

How the data were processed

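RNA-Seq libraries of 27 CF samples and 8 hearts were analysed from 4 tables of 55487 genes. Reads were trimmed, aligned to GRCm38 and counted by the authors, whose notes name Cutadapt, HISAT2, StringTie and DESeq2. The deposited CF tables hold estimated counts made by the authors' transcript assembly, in which 1 read pair seems, from the values, to stand for up to 6, and the deposited heart table holds counts. The heart columns carry no replicate number and were matched to genotype only. The untreated and IL-17 columns name each IAMP siRNA by a code, and which code is si-IAMP-1 and which si-IAMP-2 was taken from the descriptions of the TGF-β libraries, so those labels rest on the codes having the same meaning in the 3 tables. The values were fitted with edgeR 4.0.16 (R 4.3.3, limma 3.58.1; TMM scaling, filterByExpr, robust quasi-likelihood test). Each CF table was fitted alone with its 3 siRNA groups, the stimuli and interactions over all 27 libraries and the hearts alone, and a call needed an adjusted p of 0.05 or less (Benjamini-Hochberg over all genes tested). The scripts were tested on simulated data.

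The members and lists were chosen with earlier results of these data known. Named genes were the members, 4930523C07Rik, genes of the S100, partner and receptor lists past the call threshold and changed by 1 or more on the log2 scale in either direction (up to 6 per comparison) and the 3 genes most like S100a4, S100a6, S100a8 and S100a9 among those averaging 1 CPM or more, of which 2 are not reported here. Alternatives were DESeq2 1.42.0, another scaling, 2 filters, the study's fold thresholds, values divided by 6, a block for the replicate number, a fit without uncompared groups and leaving out each library.

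Depth was 104139670 to 119232309 estimated counts per CF library and 23497027 to 23857313 counts per heart, and the floors cover counting error only. No 2 libraries of a group held the same values, and replicates differed by more than sampling noise (chi-square per gene 6.45 to 35.6). Same-numbered CF libraries did not deviate together (r from -0.167 to 0.0563), so the numbers were not taken as pairs.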

Additional observations from a re-analysis of the deposited data

Results flagged for a closer look

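In the 4 Het hearts, 1 heart stood apart from the other 3 for S100a8, with 0.339 CPM (8 counts) against 0, and 1 for S100a9, with 0.125 CPM (3 counts) against 0. The criterion is meant to set about 1 group in 20 apart by chance, but with 3 of 4 hearts at 0 it sets apart any value above 0, and both values rest on few counts.

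The siRNA effect differed between stimulated and untreated CFs for 4 members, by edgeR's test of the interaction. Of all genes, 1.73% were called for si-IAMP-1 with IL-17, and 19.5% and 29.5% for si-IAMP-1 and si-IAMP-2 with TGF-β. The S100a6 call with IL-17 and the S100a8 call with si-IAMP-1 were lost in some leave-one-out fits, as given above. With si-IAMP-1 and IL-17 the log2 effect was higher than in untreated cells by 0.23 for S100a6 and by 0.25 for S100a10. With si-IAMP-1 and TGF-β it was higher by 0.29 for S100a6 and by 0.39 for S100a10, and it differed by -0.34 for S100a16 and -5.47 for S100a8. With si-IAMP-2 and TGF-β it differed by -0.37 for S100a10, -0.55 for S100a16 and -6.41 for S100a8. The S100a8 values were fitted against untreated si-NC libraries that were all at 0 and give no size. These interactions share the untreated libraries, and the stimulus and its table cannot be told apart. The knockdown of 4930523C07Rik was also weaker under TGF-β, and its part was not tested.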

How the results depend on the processing

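The fold thresholds of the study, added to the adjusted p, left 1 member called for each siRNA against si-NC in untreated, IL-17 and TGF-β CFs, 1 for si-IAMP-2 against si-IAMP-1 with TGF-β, 0 for the same comparison in untreated and IL-17 cells, 1 for IL-17 and 2 for TGF-β against untreated si-NC cells, 0 for the interaction of si-IAMP-1 with IL-17, and 1 for each siRNA's interaction with TGF-β. At least 10 counts in every library left 1 member for IL-17 against untreated si-NC cells. The other 106 counts of members called under alternatives that kept all libraries stayed within 1.5 times the reported count.

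Leaving out 1 library gave 6 to 6, 4 to 5 and 6 to 6 calls in untreated CFs (si-IAMP-1, si-IAMP-2, and si-IAMP-2 against si-IAMP-1), 4 to 5, 6 to 7 and 4 to 5 with IL-17, and 2 to 5, 4 to 5 and 4 to 6 with TGF-β. It gave 2 to 3 for IL-17 and 8 to 8 for TGF-β against untreated si-NC cells, 1 to 3, 0 to 1, 3 to 5 and 3 to 4 for the interactions of si-IAMP-1 and si-IAMP-2 with IL-17 and then with TGF-β, and 0 to 0 in hearts. The 1 call for si-IAMP-2 with IL-17 was S100a8, without untreated si-IAMP-1 replicate 3 or IL-17 si-NC replicate 3 (adjusted p = 0.0433 and 0.0351, edgeR).

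Of the member fold changes under alternatives that kept all libraries, 791 kept direction and call, 17 gained a call, 7 lost one and 4 changed sign. The 4 were S100a13 with si-IAMP-1 and IL-17, at -0.01 with DESeq2 and -0.00 with no filter, with at least 10 counts and with values divided by 6. Leaving out 1 library changed a sign 37 times, none past the threshold. The log2 ranges there were -0.14 to 0.06 for S100a13 with si-IAMP-1 and -0.02 to 0.08 for S100a1 between siRNAs in untreated cells, -0.01 to 0.05 for S100a10 and -0.08 to 0.08 for S100a13 with si-IAMP-1 and -0.02 to 0.09 for S100a1 between siRNAs with IL-17, -0.00 to 0.07 for S100a11 between siRNAs with TGF-β, and -0.15 to 0.05 for S100a13 with IL-17 against untreated cells. For interactions they were -0.06 to 0.14 (S100a13) and -0.02 to 0.06 (S100a16) for si-IAMP-1 with IL-17, -0.02 to 0.04 (S100a6), -0.14 to 0.06 (S100a13) and -0.08 to 0.02 (S100a16) for si-IAMP-2 with IL-17, and -0.01 to 0.11 (S100a4) for si-IAMP-2 with TGF-β. In hearts they were -0.05 to 0.12 for S100a6, -0.05 to 0.04 for S100a11 and -0.05 to 0.03 for S100a16. The causes were not tested.

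With the replicate number as a block, the count of members called was the same except for the si-IAMP-1 interactions, with 3 for IL-17 and 5 for TGF-β in place of 2 and 4. Between siRNAs with TGF-β the block called S100a4 (adjusted p = 0.00481 in place of 0.0708) and lost S100a8 (log2 0.87, adjusted p = 0.054). No paired analysis was possible for hearts because the heart columns carry no replicate number. Over all genes, DESeq2 called 688 for the si-IAMP-1 interaction with IL-17 against 387 by edgeR, and 5 against 0 in hearts. Depth limits S100a8 and S100a9, which lay near or under the floor in untreated CFs and in hearts.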
